A study of Homo sapiens with 2 samples.

Results

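The genes described here are 10 parts of the retinoic acid response: the retinoic acid receptors RARA, RARB and RARG, the retinoid X receptors RXRA and RXRB, the nuclear receptor coactivators NCOA1, NCOA2 and NCOA3, and the cellular retinoic acid binding proteins CRABP1 and CRABP2. They were taken by name, as every transcript probe to which the arrays give one of these symbols. They are 10 of the 27719 gene names on the arrays and were read by 16 probes, with 1 probe for 5 genes, 2 probes for 4 genes and 3 probes for NCOA3.

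Retinoic acid is the active hormone that cells make from vitamin A, and in the eye the same vitamin also supplies the light-sensing pigment of photoreceptors. A retinoic acid receptor pairs with a retinoid X receptor on short repeated DNA elements, where it holds corepressors without hormone and exchanges them for coactivators once retinoic acid is bound. The binding proteins carry retinoic acid through the cytoplasm toward the receptors or toward the enzymes that break it down. In the developing retina, retinoic acid is known for its part in eye patterning and in the maturation of photoreceptors.

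RNA of Y79, an established cell line from a human retinoblastoma, was hybridized in 1 color to whole-genome oligonucleotide arrays. There were 2 arrays, 1 of siRNA-untreated cells and 1 of cells collected 48 h after siRNA against the gene for Ep-CAM (TACSTD1 on the arrays), a surface adhesion molecule of epithelial cells, in order to find the genes whose expression moves with Ep-CAM. By the study's methods the siRNA was given at 200 nM with a lipid transfection reagent, and both cultures had been exposed to 5 µM azacytidine, a drug that lowers DNA methylation and brings back Ep-CAM expression in this line, so the untreated array is not of Y79 cells without drug. The reference received no control siRNA according to the labels, so an effect of transfection and an effect of Ep-CAM loss cannot be told apart. With 1 array per condition no test and no p-value could be computed, and every ratio below compares 2 arrays and not 2 sets of replicates.

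Of the 43376 transcript spots, 70.4% were well above background on the untreated array and 68.0% on the other. The 26975 probes measured on both arrays had a median log2 ratio (siRNA-treated over siRNA-untreated) of -0.03 with an SD of 0.33. The lower right corner of the array (from row 355 to row 532 and from column 43 to column 85) held 5.34% of probes at least 2-fold higher and 2.17% at least 2-fold lower, against 0.435% and 0.673% elsewhere. This corner was set apart after the positions of changed probes had been seen, and 4 of the 16 probes lie in it. The TACSTD1 probe was dim on both arrays, that is, not well above background (signals of 15.6 and 11.96), so the target of the siRNA does not check the labels. Of 11 photoreceptor and retinoblastoma marker genes on the arrays, CRX, OTX2, ARR3, MYCN and THRB were well above background in untreated cells. On the siRNA-treated array THRB was not. The rest of the 11, namely NRL, RCVRN (recoverin), NEUROD1, PDE6H, RXRG and SYP, were well above background on neither array. Among these, NRL and recoverin also define the photoreceptor lineage. Leukocyte markers were above background on both arrays for 5 of 5 genes and fibroblast markers for 5 of 6, and in none of the 7 marker lists did a probe pass 2-fold, so the flag was also raised for markers of other cell types.

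Most of the retinoid machinery read almost the same on both arrays. Among the 11 probes of 8 genes that were measured on both arrays, 1 RARG probe was at least 2-fold higher in siRNA-treated cells, the NCOA1 probe was at least 2-fold lower, and the other 9 had log2 ratios from -0.26 to 0.11. The background is 1.27% of 29345 probes higher and 0.927% lower, so 1 of 11 in each direction is a matter of single probes. The study's own lists of changed genes already hold RARG as higher and NCOA1 as lower. The 10 genes were chosen with earlier results of these data known, so these counts are not independent of the data. The median of the 11 log2 ratios was -0.04, next to -0.03 over all measured probes. That median is the value of a CRABP1-labelled probe on the opposite strand, described below, and without it the median of the other 10 was 0.00. Of the 9 probes that did not pass, 4 were above and 5 below 0, and 8 lay within the SD of 0.14 that 190 repeatedly spotted probes showed as technical spread. RARB and NCOA2, with 1 probe each, were well above background on neither array, so a change in them could not be seen.

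**Figure D1:**
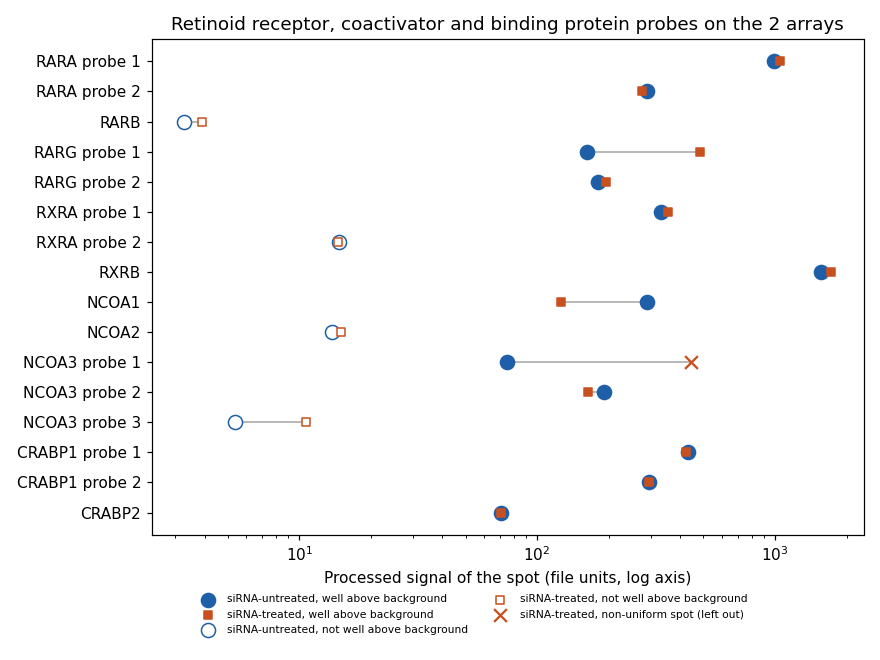
Processed signal of each of the 16 probes on the siRNA-untreated (circles) and the siRNA-treated array (squares), on a log axis in the units of the files; open symbols mark spots not well above background, and the cross marks the NCOA3 spot that the scanner software called non-uniform. The other 9 measured probes stay within 2-fold, while RARG probe 1 moves from 163 to 485 and NCOA1 from 291 to 126.

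Among the receptors that bind retinoic acid itself, RARA was unremarkable at both of its probes. The first RARA probe (A_23_P207842, hg17 chr17:35766700-35766759, plus strand) had a processed signal of 987 without and 1049 with siRNA, which gives a log2 ratio of 0.05 ± 0.20, where the error is that of the scanner software's error model for the 2 spots. The second RARA probe (A_32_P5251, chr17:35766454-35766513), which lies 186 bases away, had signals of 290 and 276, with a log2 ratio of -0.10 ± 0.21. Both values are smaller than their errors and the probes differed from each other by 0.16.

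RARG, the receptor that is best known from skin and cartilage, was the only gene of the 10 with a probe at least 2-fold higher, leaving out the NCOA3 spot flagged as non-uniform. Probe A_23_P117125 (hg17 chr12:51891821-51891880, minus strand) went from 163 to 485 in signal, and its log2 ratio was 1.54 ± 0.21 or 2.91-fold. The second RARG probe (A_23_P387552, chr12:51890832-51890891, minus strand), made from the same transcript record and 929 bases away, had signals of 180 and 196, with a log2 ratio of 0.08 ± 0.21. One probe of this gene was therefore clearly brighter on the siRNA-treated array while the other was level, and the gap of 1.46 between them is several times the error of either. Across the 3962 genes with at least 2 measured probes, the median range between probes of a gene was 0.26, and 54 genes (1.36%) had a range as large as that of RARG. Few probes past the threshold had a second probe that passed as well. Of 77 measured probes at least 2-fold higher whose gene had another measured probe, 6 had a second probe that was also at least 2-fold higher. This count does not say how large the gap was for the others.

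The RARG probe that passed is shown because the result rests on this 1 spot. It is 60 bases long, runs in the sense direction of the gene, and has 1 reading frame without a stop codon. Exon and UTR positions were not looked up, since no annotation of the hg17 build was used here.

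RARG A_23_P117125: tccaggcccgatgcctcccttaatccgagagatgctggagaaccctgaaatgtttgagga

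The spot of this probe lies at row 499 and column 81, in the corner described above. The variation among its pixels was 14.3% of the mean without siRNA and 33.3% with it, although the software did not mark it as an outlier. Of the 51 transcript spots within 5 rows and 2 columns, 29 were measured on both arrays, and their median log2 ratio was 0.55 with a range from -0.49 to 2.15. The spots around RARG were thus mostly brighter on the siRNA-treated array too, with 3 of the 29 at least 2-fold higher and 1 as high as RARG itself. Of the 5 measured spots directly beside it none was at least 2-fold higher. The other 22 spots of the window were not measured on both arrays, and their ratios are less reliable. Of these, 10 had a log2 ratio of at least 1, up to 4.58, and 1 had -1 or less. THC2328913, directly beside the RARG spot, was among them at 1.34. Set against the median of its surroundings, the log2 ratio of the probe was 0.99, just under the threshold. The second RARG probe lies outside the corner, at row 221 and column 75, where the 37 measured spots around it had a median of 0.00. The part of the spot's position in the RARG value was not tested.

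**Figure D2:**
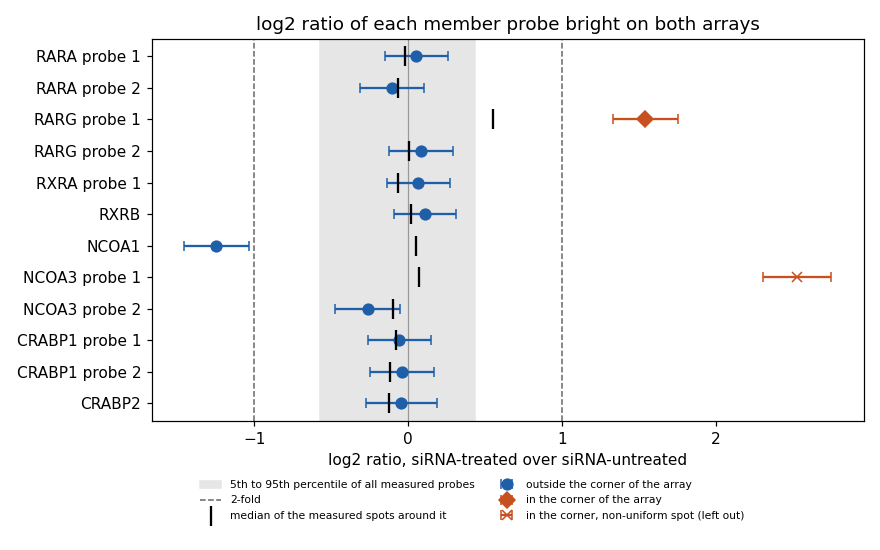
log2 ratio (siRNA-treated over siRNA-untreated) of the 12 probes well above background on both arrays, with the error of the scanner software's model; ticks mark the median of the measured spots around each probe, the grey band spans the 5th to 95th percentile of all measured probes (-0.57 to 0.44), and dashed lines mark 2-fold. RARG probe 1 (1.54), NCOA1 (-1.25) and the non-uniform NCOA3 spot (2.53) lie outside the lines, and the other 9 lie inside the band.

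RARB is the receptor gene that retinoic acid itself switches on, and in many tumors its promoter is methylated. Its single probe (A_24_P3249, hg17 chr3:25613626-25613685, plus strand) had signals of 3.29 and 3.90 and was well above background on neither array. Both cultures had been exposed to azacytidine. The lowest signals well above background were 14.9 on the untreated array and 17.5 on the other, so both RARB readings lay under what the arrays could measure, and no ratio is given. The probe also lies in the corner, at row 402 and column 58.

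The RARB promoter is shown because it holds the element through which the receptors act on this gene. Promoter windows of 250 bases before to 50 bases after the start site were searched on both strands for 2 copies of the half-site AGGTCA in direct repeat, each copy being also allowed to read GGGTCA or as AGTTCA or else as GGTTCA, a form of the element at which these receptor pairs bind. With 5 bases between the copies, 31 of 35116 windows in the RefSeq table (0.0883%) held a match, and among the 18 windows of 9 of the 10 genes the match was in RARB alone. With 1 base (0.131% of windows) or 2 bases (0.0399%) between the copies, none of the 18 windows held one. The match in capitals begins 53 bases before the start site, in GRCh38.p14 chr3:25428190-25428246, plus strand.

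RARB promoter: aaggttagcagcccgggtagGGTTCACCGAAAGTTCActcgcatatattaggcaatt

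This match is a stretch of letters and the arrays carry no reading of binding or methylation there.

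The retinoid X receptors, the shared partners of the retinoic acid receptors and of several other nuclear receptors, read level. RXRB (A_23_P59179, hg17 chr6:33270164-33270223, minus strand) had signals of 1556 and 1721, with a log2 ratio of 0.11 ± 0.20. RXRA (A_23_P219176, chr9:134554548-134554607, plus strand) had signals of 331 and 355, with a log2 ratio of 0.07 ± 0.21. Both differences were smaller than their errors. The other RXRA probe (A_23_P423197, chr9:134557717-134557776), which lies 3109 bases further along, had signals of 14.7 and 14.6 and was dim on both arrays. RXRG, the third gene of this family and not among the 10, had a single probe that was also not well above background on either array (signals of 7.85 and 4.79).

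NCOA1, a coactivator that docks on hormone-bound nuclear receptors and brings in histone acetyltransferases, was the only gene of the 10 with a probe at least 2-fold lower. Its single probe (A_23_P39602, hg17 chr2:24892556-24892615, plus strand) went from 291 in untreated cells to 126 with siRNA, so that its log2 ratio was -1.25 ± 0.21, which is 2.37-fold lower. The raw median brightness of the spot, before background subtraction, went from 368 to 206, which is 1.79-fold lower, and the local background was 33.5 and 41.0. The spot was thus also dimmer in the raw image, and the difference passed 2-fold only with the background taken off. The probe is shown because it is the single sequence on which the NCOA1 value rests; it has 2 reading frames without a stop codon.

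NCOA1 A_23_P39602: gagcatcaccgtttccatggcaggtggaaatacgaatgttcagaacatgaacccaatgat

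The NCOA1 spot lies at row 442 and column 30, outside the corner, and its pixels were even on both arrays, with a variation of 12.4% and 11.04% of the mean. Around it, 40 spots were measured on both arrays, with a median log2 ratio of 0.05 and a range from -0.93 to 0.47. None of the 40 was at least 2-fold lower and none was as low as NCOA1. With only 1 probe for the gene, no second sequence can be set beside it, and of 89 measured probes at least 2-fold lower whose gene had another measured probe, 9 had a second probe that was also at least 2-fold lower.

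**Figure D3:**
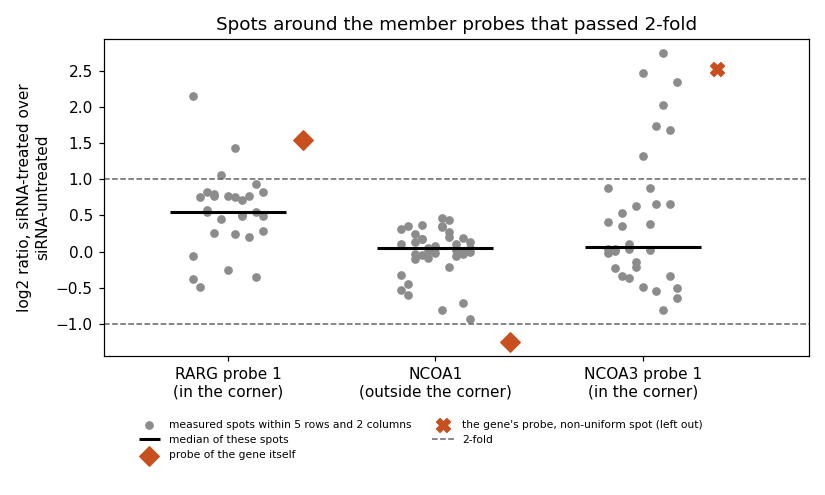
log2 ratio of the measured spots within 5 rows and 2 columns (grey points, line at their median) of the 3 member probes whose log2 ratio was past 1 in size, with the probe itself in orange; dashed lines mark 2-fold. The spots around RARG have a median of 0.55, those around NCOA1 0.05 with none as low as the gene, and those around the non-uniform NCOA3 spot 0.07 with 7 of 34 at least 2-fold higher.

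The related coactivator NCOA3, which is amplified in some breast cancers, gave 3 different readings from 3 probes of 1 transcript record. Probe A_23_P313560 (hg17 chr20:45717810-45717869, plus strand), at row 7 and column 14, gave 192 and 164, with a log2 ratio of -0.26 ± 0.21. Probe A_23_P120442 (chr20:45717037-45717096) had signals of 74.9 and 443, with a log2 ratio of 2.53 ± 0.22, but the scanner software flagged its spot on the siRNA-treated array as non-uniform and it was left out of every count. The variation among the pixels of that spot was 14.2% of the mean without siRNA and 57.7% with it, and it lies in the corner, at row 517 and column 71. Probe A_23_P313568 (chr20:45717387-45717446), also in the corner, had signals of 5.37 and 10.7 and was dim on both arrays. The 2 bright probes lie 713 bases apart and differed by 2.79, more than the RARG probes did.

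The spots around the non-uniform NCOA3 spot were uneven as well. Of 34 measured there, 7 were at least 2-fold higher and 1 was as high as NCOA3, with values from -0.81 to 2.74 and a median of 0.07. The NCOA2 probe (A_23_P428999), for the third coactivator of this family, had signals of 13.7 and 15.0 and gave no ratio.

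**Figure D4:**
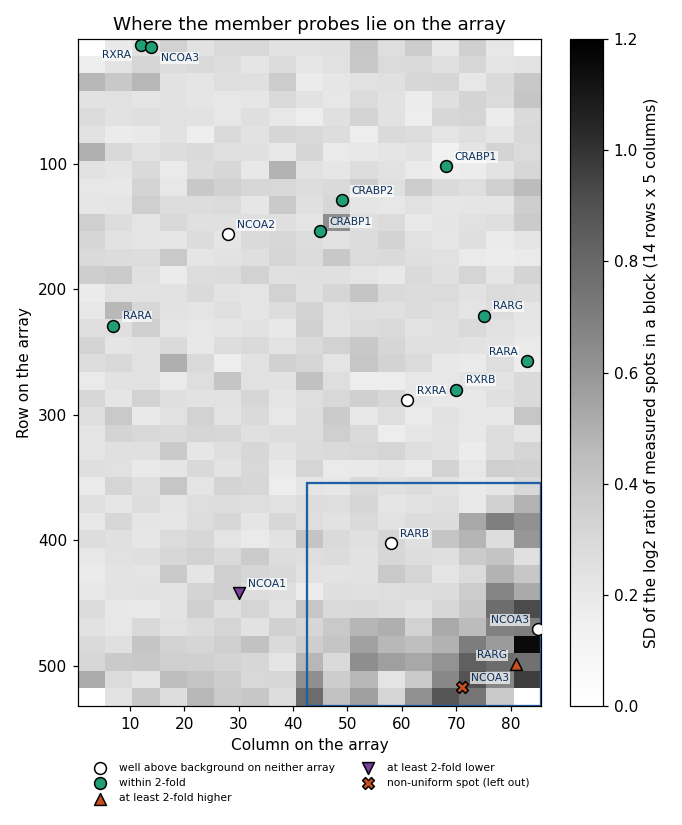
Position of the 16 probes on the array, over the SD of the log2 ratio of measured spots in blocks of 14 rows by 5 columns (darker is more variable); the frame marks the lower right corner. RARG probe 1, 2 NCOA3 probes and RARB lie in the frame, and NCOA1 lies outside it.

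CRABP1 and CRABP2, the carriers of retinoic acid in the cytoplasm, read nearly the same on both arrays. The CRABP1 probe A_23_P117882 (hg17 chr15:76427455-76427514, plus strand) had signals of 430 and 423, with a log2 ratio of -0.06 ± 0.20. CRABP2 (A_23_P115064, chr1:153482652-153482711, minus strand) had signals of 70.6 and 70.2, with a log2 ratio of -0.04 ± 0.23. Both differences were smaller than their errors.

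A second probe carries the symbol CRABP1 (A_24_P324871, hg17 chr15:76418842-76418901), and it is shown because it reads the other strand. It was made from another cDNA record, AK096006, and runs along the minus strand whereas CRABP1 is on the plus strand. The probe lies 8553 bases before the first one, more than the 7873 bases that CRABP1 spans in RefSeq. These 2 probes therefore cannot both lie within the gene as annotated there. Of the 16 probes, 14 run with their gene, A_24_P324871 runs against it, and for NCOA2 the strand of the gene was not looked up.

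CRABP1 A_24_P324871: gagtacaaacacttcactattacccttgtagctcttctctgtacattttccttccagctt

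Its signals were 296 and 295, a log2 ratio of -0.04 ± 0.21, and because the probe runs against the gene they cannot be taken as readings of the CRABP1 messenger RNA. It differed from the first CRABP1 probe by 0.02.

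The other genes of the pathway were looked up in lists of RXR partners, coactivators, corepressors, carriers, enzymes of retinoid synthesis, storage and breakdown, and genes known to be induced by retinoic acid. Of 85 genes listed outside the 10, 81 were on the arrays, 63 had a probe measured on both and 15 were dim at every probe. Their 82 measured probes had a median log2 ratio of -0.08, and of the 87 probes with a ratio or a bound 3 were at least 2-fold higher (3.45%) and 1 at least 2-fold lower (1.15%), beside 1.27% and 0.927% over all probes. All 3 higher probes lie in the corner of the array, where 5.34% of all probes were at least 2-fold higher, and the lower one lies outside it. Of the 125 probes of these genes, dim ones counted, 25 lie in the corner. The 5.34% counts only probes with a ratio or a bound, so 3 of 25 is not a like share.

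The probe of NR1I2, a xenobiotic-sensing receptor that pairs with RXR, was below the background limit in untreated cells (5.59) and read 125 with siRNA, which makes it at least 8.14-fold higher. RBP4, the carrier of vitamin A in blood, was likewise dim in untreated cells (27.7) and read 62.2 with siRNA, at least 2.19-fold higher. With the median of the spots around it (0.27) taken off, RBP4 was at 0.87 on the log2 scale, under the threshold, and NR1I2 was at 2.68. The NR1I2 and RBP4 spots lie in the most variable of the array blocks mapped above, where measured spots had an SD of 1.15. Outside the corner the SD was 0.29. Taking off a median does not remove such spread, and its part in the NR1I2 and RBP4 values was not tested. HOXB4, a patterning gene induced by retinoic acid, had signals of 72.0 and 162, with a log2 ratio of 1.13 for the probe in the corner, whereas the probe outside it gave 78.3 and 85.6 and a log2 ratio of 0.09. As with RARG, the probe past 2-fold lies in the corner and the other does not. The measured spots around the HOXB4 probe had a median of -0.11, and those around RARG had 0.55. Set against its surroundings, HOXB4 was at 1.25. Measured spots in the array block of this probe had an SD of 0.48, against 0.29 outside the corner. The part of the spot's position in the HOXB4 value was not tested. RDH10, which oxidizes retinol to retinaldehyde in the first step of retinoic acid synthesis, had signals of 553 and 206 at its bright probe, so a log2 ratio of -1.46, and the other RDH10 probe stayed dim on both.

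**Figure D5:**
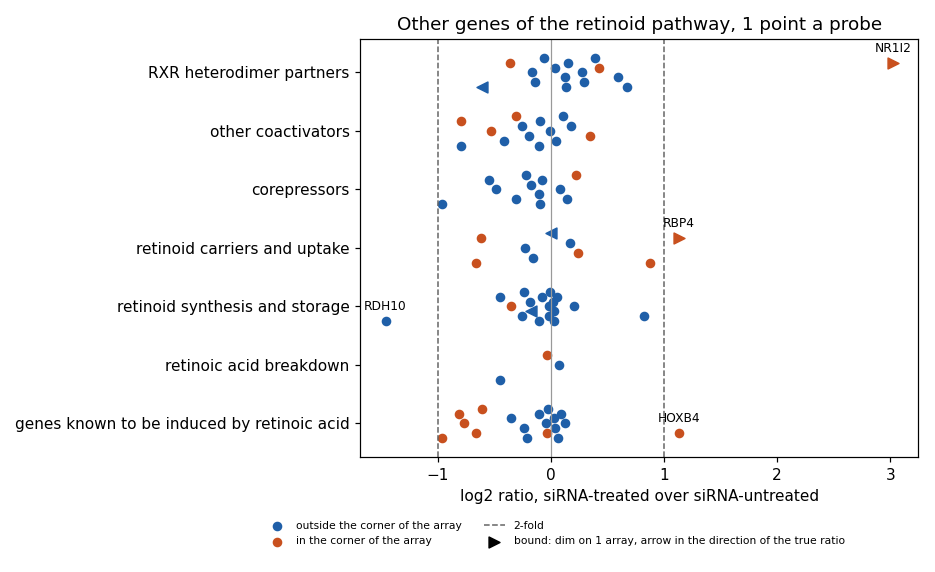
log2 ratio of each probe of the other retinoid pathway genes that was well above background on at least 1 array, by list. Probes in the corner of the array are in orange and dashed lines mark 2-fold. Arrowheads mark probes dim on 1 array, drawn as bounds. For RBP4 the dim signal lies over the lowest signal well above background, so its arrowhead is at the plain ratio. Of 87 probes, NR1I2, RBP4 and HOXB4 lie above 2-fold, all in the corner, and RDH10 lies below it.

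List by list, no probe of the receptors' partners and cofactors with a ratio or a bound passed 2-fold apart from NR1I2. THRB, an RXR partner, was dim with siRNA and at least 1.53-fold lower, so whether it fell 2-fold cannot be said. Dim on both arrays, and without a ratio, were 4 of 20 partner probes, 7 of 21 coactivator probes and 7 of 19 corepressor probes. The RXR partners had a median log2 ratio of 0.14 over 14 measured probes, and THRA, a thyroid hormone receptor with the brightest of them in untreated cells, had signals of 3730 and 4997, with a log2 ratio of 0.39. The coactivators other than NCOA1 to NCOA3 had a median of -0.15 over 14 probes with a range from -0.80 to 0.34, none past 2-fold. The lowest of them was PRMT1, an arginine methyltransferase, with signals of 11139 and 6571, with a log2 ratio of -0.80. The corepressors had a median of -0.14 over 12 probes with none past 2-fold, and their brightest, SIN3A, had signals of 2030 and 1966.

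The carriers and uptake genes had a median of -0.15 over 7 measured probes, with STRA6, the cell surface receptor for RBP4, at signals of 177 and 118, with a log2 ratio of -0.61 in the corner of the array. The synthesis and storage genes had a median of -0.02 over 17 probes, with RDH10 alone past 2-fold. The breakdown enzymes had a median of -0.04 over 3 probes, among which CYP26B1 had signals of 137 and 103, with a log2 ratio of -0.45 at its brighter probe.

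Genes that retinoic acid is known to induce, a list that also holds RARB, CRABP2 and CYP26A1, had a median log2 ratio of -0.05 over 19 measured probes. HOXB4 was the only one past 2-fold. RARRES3, a growth suppressor and the brightest of the list in untreated cells, had signals of 1046 and 1101, with a log2 ratio of 0.04. CYP26A1, the enzyme that clears retinoic acid and one of its most direct targets, had signals of 42.46 and 42.40, with a log2 ratio of -0.04; it was named after its values were seen.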

How the data were processed

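Total RNA of siRNA-untreated and Ep-CAM siRNA-treated Y79 cells was hybridized to Agilent whole-genome arrays in 1 color, with 1 array each. The authors deposited spot intensity values from Agilent Feature Extraction, version 9.5.3.1 per the file headers. The processed intensity is spot brightness with background subtracted and the software's correction for gradients across the array, not scaled between arrays. Regional shifts in the log2 ratio remained, with medians of -0.72 and 0.61 in single blocks of the corner. The deposited table of the whole series held the raw median intensity and served as an alternative.

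Each array was divided by its median over transcript spots (48.9 and 50.1), 0.01 was the floor, and values were put on the log2 scale. Spots flagged as outliers on either array were left out (233 spots) and repeated spots were averaged. At least 50% of the spots had to be well above background for the probe to count so. Where this held on 1 array only, the dim side was set to the lowest signal well above background or its own signal, whichever was higher, and the ratio is a bound. A log2 ratio of 1 or more was called higher and -1 or less lower. No test was made, since there was 1 array per group. The precision is limited by the number of arrays, and errors are those of the scanner software.

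The members and the gene and marker lists were chosen with earlier results of these data known. Named were all 10 members, every list gene past 2-fold and the brightest gene of each list. Coordinates of probes come from the files (hg17). Of 16 probe accessions, 15 matched the same symbol in RefSeq (GRCh38.p14), which also gave the promoter windows. Exon and UTR annotation of hg17 was not used here. Python 3.11.15, pandas 2.3.3, R 4.3.3 and limma 3.58.1 (normexp alternative, offset 50) were used, and the calling was tested on simulated data. The simulation held only the technical spread of repeated spots (SD of 0.14) and no effect of position. Measured probes had an SD of 0.33, so the simulation does not give the rate of false calls on these arrays.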

Additional observations from a re-analysis of the deposited data

How the results depend on the processing

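Of 12 alternatives, 10 were planned and 2 (the arrays without the corner, and normexp without a spot at or below its local background) were chosen after seeing the data. Neither member probe past 2-fold (RARG, NCOA1) changed sign. Of 120 ratios of single member probes under these alternatives, 17 moved by more than the technical SD. The RARG corner probe ranged from 0.99 to 1.59 and NCOA1 from -1.30 to -0.88. Member probes higher numbered 2 with outlier spots kept (NCOA3 added), and 0 with the local median subtracted or without the corner. Member probes lower numbered 0 with the series value table (NCOA1 at -0.88) and with the second normexp fit (-0.91). The member median was -0.53 with normexp, where that of all probes was -0.20. Other pathway probes higher, 3 in the reported setting, numbered 0 with normexp and without the corner, 1 with the series table, the second normexp fit and only probes bright on both arrays, 6 without the background filter and 7 at ratios of 1.5 and 0.55. Pathway probes lower, 1 as reported, numbered 5, 2, 3 and 2 with normexp, without the filter, at 1.5 and 0.55, and with the local median subtracted. Over all probes, 372 higher and 272 lower became 45 and 1060 with normexp, 89 and 80 with the series table, 126 and 76 with the second normexp fit, 1047 and 1018 without the filter, 1174 and 498 at 1.5 and 0.55, 106 and 164 without the corner, and 214 and 216 for probes bright on both. With the local median subtracted the count of higher pathway probes stayed at 3, but RBP4 dropped out and FABP5, named after its values were seen, came in (1.08), and over all probes 266 were higher and 220 lower. In that setting CEBPE, of the list induced by retinoic acid, came in on the lower side (-1.48, from -0.96). It too was named after its values were seen. The causes were not tested. No paired analysis was possible because each group has 1 array. Dim probes limit RARB and NCOA2.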
